A study of Mus musculus with 6 samples.

Results

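The genes described here are 32 genes of glycolysis and of the hypoxia response, chosen by name among the 24340 genes of the deposited table. All 32 were found by symbol, and 31 had a mean of at least 1 FPKM (fragments scaled by transcript length and by the library total) over the 6 libraries and were tested. They fall into 15 glycolytic enzymes, 4 genes of glucose and lactate transport and of flux control, the gene of the transcription factor subunit HIF-1 alpha, and 12 genes that hypoxia-inducible factors (HIF) switch on outside glycolysis. RNA came from primary microglia, the macrophages of the brain, cultured from brains of newborn C57BL/6 mice less than 3 days old. The vehicle group received DMSO for 1 h and the C13 group 10 uM of AG2P145D, called C13 and named in the series title as an inhibitor of the kinase MOK, before both were given 1 ug/ml of the bacterial product lipopolysaccharide (LPS) for 5 h. Each group had 3 libraries, called biological replicates in the labels with no culture, litter or animal named, and the p-values therefore rest on the spread of these samples, which may be technical. No cells without LPS were used here and the comparison is of C13 with vehicle among LPS-exposed cells, and neither oxygen nor glucose was varied.

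Glycolysis turns glucose into pyruvate and lactate in the cytosol, and macrophages that meet LPS draw on it heavily. HIF-1 alpha joins a constant partner, ARNT, to switch on most glycolytic enzyme genes together with genes for blood vessel growth, removal of mitochondria, collagen maturation and its own degradation. The factor is controlled mainly as a protein, by prolyl hydroxylases (the EGLN proteins) that mark it for destruction when oxygen is present, while LPS can also raise its RNA through NF-kappaB. RNA levels of its targets are therefore a readout at one remove from the protein, which was not measured.

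Depth was estimated from the smallest steps between low FPKM values, since the table holds no read totals, and came to 8930000 to 11570000 fragments per library. Vehicle replicate 2 was unlike the rest: over the 11412 genes tested, its median correlation to the others was 0.969, where theirs were 0.984 to 0.989, so each result is given with and without it. The 12 markers of microglia and macrophages summed to 1149 to 1360 FPKM with vehicle and 1053 to 1193 with C13. Csf1r and Itgam, 2 of them, lay at 57.9 to 69.3 and 42.9 to 80.1 FPKM. Cx3cr1, P2ry12 and Tmem119 were less abundant, at 1.89 to 3.21, 1.30 to 3.18 and 5.36 to 6.94 FPKM. With C13 against vehicle 4 of the 12 lay above 0 and 8 below, with a median change of -0.11 in log2(FPKM + 1). P2ry12 alone did not overlap between the groups and was lower with C13 (9.78% of all genes). The cultures were not microglia alone by such sums, because the 8 markers of fibroblasts and mural cells, all of them tested, summed to 6560 to 7811 FPKM with vehicle and 6239 to 6555 with C13. The 8 astrocyte markers, 7 of them tested, summed to 47.0 to 58.9 FPKM with vehicle and 64.1 to 112 with C13, highest in C13 replicate 2, and S100b was at 0.374 FPKM or less. Of the 8 markers of the oligodendrocyte lineage 3 were tested and Mog was listed at the floor of 0.01 FPKM in every library. In such bulk samples fewer cells of a type and less RNA per cell cannot be told apart, and the part of other cells in the values below was not tested except where a value is given.

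HIF binds DNA at a short core, ACGTG or GCGTG. The promoters of 4 members that the results turn on are shown here because their changes with C13 had opposite signs, above 0 in Bnip3 and Adm and below 0 in Vegfa and Hk2. Each is the 250 bases before a RefSeq transcription start on GRCm38.p6, read 5′ to 3′ on the gene's strand, with the core in capitals on either strand (CACGT and CACGC on the printed strand are the reverse). The Bnip3 window is chr7:138909507-138909756 (minus strand), that of Adm chr7:110627407-110627656 (plus strand), that of Hk2 chr6:82774455-82774704 (minus strand) and that of the longer Vegfa transcript chr17:46032378-46032627 (minus strand).
Bnip3: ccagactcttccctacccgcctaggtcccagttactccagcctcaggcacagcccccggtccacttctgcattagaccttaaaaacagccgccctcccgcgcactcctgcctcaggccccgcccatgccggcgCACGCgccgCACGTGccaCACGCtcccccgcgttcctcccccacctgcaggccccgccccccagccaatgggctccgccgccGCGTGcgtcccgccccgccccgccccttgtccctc
Adm: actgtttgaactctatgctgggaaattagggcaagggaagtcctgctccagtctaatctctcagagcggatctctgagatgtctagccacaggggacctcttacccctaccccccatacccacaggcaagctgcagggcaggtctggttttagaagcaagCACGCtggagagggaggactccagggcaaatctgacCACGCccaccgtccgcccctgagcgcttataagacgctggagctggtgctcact
Hk2: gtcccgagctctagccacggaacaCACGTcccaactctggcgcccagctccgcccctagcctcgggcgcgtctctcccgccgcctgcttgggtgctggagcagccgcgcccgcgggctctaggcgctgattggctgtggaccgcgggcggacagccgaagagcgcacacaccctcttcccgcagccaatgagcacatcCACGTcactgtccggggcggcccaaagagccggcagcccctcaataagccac
Vegfa: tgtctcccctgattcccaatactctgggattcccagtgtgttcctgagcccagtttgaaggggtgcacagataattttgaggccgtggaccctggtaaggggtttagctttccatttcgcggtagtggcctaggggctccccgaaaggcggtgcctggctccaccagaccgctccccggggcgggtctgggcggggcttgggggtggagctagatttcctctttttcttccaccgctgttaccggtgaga
Bnip3 held 5 matches, of which a pair is the palindrome CACGTG read on both strands, Adm and Hk2 held 2 each, and this Vegfa window held none, while a second Vegfa start further along the gene had 2 in its window. Windows were found for 30 of the 32 members, and 28 of these genes (93.3%) had the core in at least 1 window. Counted in the same way, it was in 61.9% of the 8962 tested genes with a window and in 41.5% of all 27025 genes with one. Among the members these were 13 of 15 glycolytic enzymes and 10 of 10 HIF targets outside glycolysis, with the rest in the other roles. Over all windows the core was in 35 of 43 from the members, 81.4%, and in 38.6% of the 32851 windows of all genes. The members' windows were richer in G and C, with a median of 62.8% against 52.4%, and among windows of at least 60% GC the core was in 24 of 25 from the members and in 63.8% of 9178. The core thus stood before genes with changes on either side of 0. A match is a description of these letters and not a bound site. A window without a match, as in Vegfa, does not speak to sites outside its 250 bases, which were not searched.

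The question was how the RNA of these genes differed between C13 and vehicle in LPS-exposed cells. No member passed the test with all 6 libraries. The changes in log2(FPKM + 1) furthest from 0 were those of Bnip3 (0.49), which encodes a receptor for the removal of mitochondria, Adm (0.46), which encodes a vasodilator peptide, Hif1a (0.43) and the hexokinase gene Hk2 (-0.36). Hk2 and the vessel growth factor gene Vegfa (-0.28) passed once vehicle replicate 2 was left out. In the test over all genes (limma on log2(FPKM + 1), Benjamini-Hochberg adjustment, threshold 0.05) 0 of 31 members passed with all 6 libraries, as 0% of all genes did, and at an unadjusted p under 0.05 there were 2 members on the higher side (2.57% of all genes) and 3 on the lower side (4.77%). Without vehicle replicate 2, Hk2 and Vegfa fell, on a background of 0.412% of genes called higher and 1.07% called lower. With all 6 libraries the groups did not overlap in 4 members higher with C13 (Bnip3, Adm, Ndrg1 and Slc2a1; 6.83% of all genes) and in 5 lower (Hk1, Hk3, Pfkp, Vegfa and P4ha1; 9.78% of all genes).

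**Figure D1:**
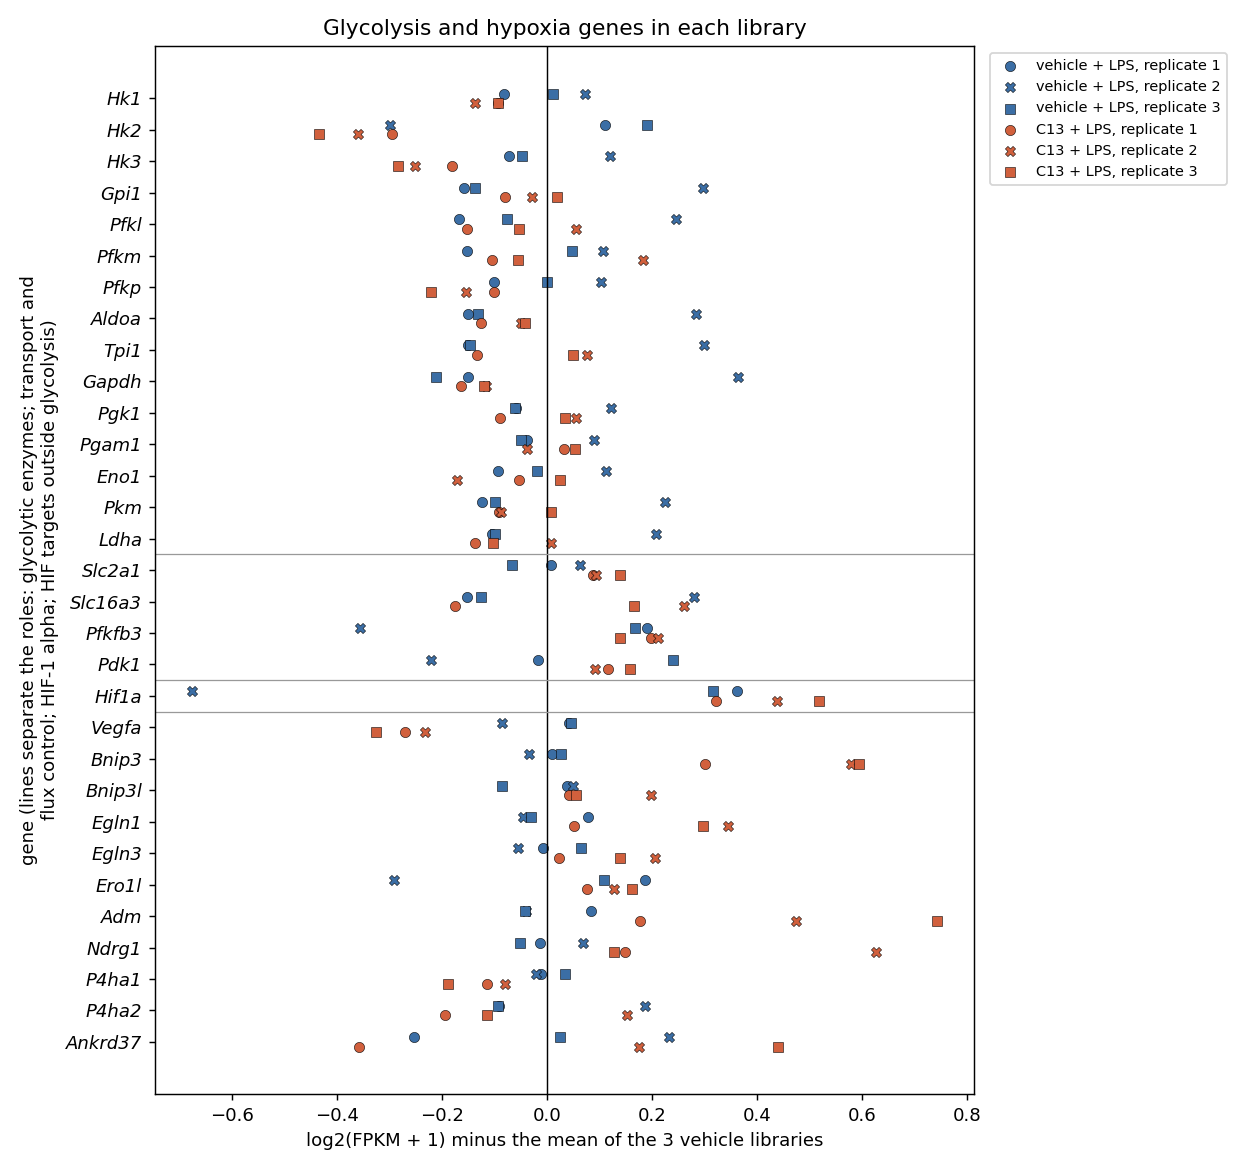
Each row is 1 of the 31 tested genes and each point 1 library, as log2(FPKM + 1) minus the mean of the 3 vehicle libraries; colour gives the group and marker shape the replicate. Vehicle replicate 2 lies to the right in most glycolytic enzymes and far to the left in Hif1a, and all 3 C13 libraries lie to the right of vehicle in Bnip3 and Adm and to the left in Vegfa and Hk3.

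Glucose enters the cell through the transporter GLUT1, encoded by Slc2a1 (chromosome 4, 119108711 to 119137983, plus strand; coordinates here and below are from the GENCODE annotation of GRCm38, also known as mm10). Slc2a1 had 61.7, 64.1 and 58.5 FPKM in vehicle replicates 1, 2 and 3 and 65.3, 65.6 and 67.7 FPKM in C13 replicates 1, 2 and 3. All 3 C13 libraries were above all 3 vehicle libraries by a narrow margin. The vehicle mean was 61.4 ± 2.79 FPKM and the C13 mean 66.2 ± 1.31 FPKM (SD, n = 3 each, as for every mean below), and the change in log2(FPKM + 1) was 0.11 (SE 0.0759, limma adjusted p = 0.821).

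Hexokinases trap glucose in the cell by phosphorylating it. Hk2 (chromosome 6, 82725025 to 82774454, minus strand) encodes the inducible form that sits on mitochondria and is a HIF target. It had 48.5, 36.3 and 51.3 FPKM in the vehicle libraries and 36.4, 34.8 and 33.0 FPKM in the C13 libraries. Vehicle replicates 1 and 3 lay well above all C13 libraries, and vehicle replicate 2 lay among them, so the groups overlapped. The change was -0.36 (SE 0.136, limma adjusted p = 0.624) with all 6 libraries. Without vehicle replicate 2, in which Hk2 deviated by -0.45 from the other vehicle libraries, it was -0.51 (SE 0.0605, limma adjusted p = 0.0191), and Hk2 fell. The call stayed when that comparison was rescaled to TPM, quantile normalized or corrected for length and GC content of transcripts (limma adjusted p of 0.0141, 0.0197 and 0.0225). These settings reuse the same libraries and were chosen after seeing the data. With all 6 libraries and the length and GC trend removed, no member was called.

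Hk3 (chromosome 13, 55005985 to 55021385, minus strand), the hexokinase of myeloid cells, was the most abundant of the family per length, at 84.4, 96.6 and 85.9 FPKM with vehicle against 78.1, 74.4 and 72.7 with C13. The 3 C13 libraries were the lowest. The change was -0.24 (SE 0.0859, limma adjusted p = 0.605), and -0.18 (SE 0.0497, adjusted p = 0.139) without vehicle replicate 2. Microglia and macrophage markers overlapped between the groups in their sum. Hk1 (chromosome 10, 62268855 to 62379908, minus strand), the housekeeping form, measured 18.7, 20.9 and 20.001 FPKM with vehicle against 18.5, 17.9 and 18.5 with C13. The groups were separated by less than the spread within the vehicle group, the change was -0.11 (SE 0.082, limma adjusted p = 0.821), and after rescaling to TPM it was 0.021, or -0.10 relative to the median of all genes, which that scaling moved by 0.13.

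The share of the 3 hexokinase genes in their summed FPKM does not depend on how a library is scaled. Hk2 made up 32.01, 23.6 and 32.7% in the vehicle libraries and 27.3, 27.4 and 26.5% in the C13 libraries. Vehicle replicates 1 and 3 were higher and vehicle replicate 2 lower than every C13 library. The Hk1 share was 12.3, 13.6 and 12.7% with vehicle and 13.9, 14.1 and 14.9% with C13, all C13 libraries being above all vehicle libraries. Hk3 held 54.6 to 62.8% of the sum with vehicle and 58.5 to 58.7% with C13.

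Phosphofructokinase, the committing step, is built from liver, muscle and platelet subunits. Pfkp (chromosome 13, 6579768 to 6648777, minus strand), the platelet type, measured 18.985, 22.0 and 20.4 FPKM with vehicle against 18.972, 18.3 and 17.4 with C13. The groups did not overlap only because C13 replicate 1 was marginally under vehicle replicate 1, and the change was -0.16 (SE 0.0896, limma adjusted p = 0.787). Pfkl, the liver type, measured 28.4, 38.1 and 30.3 FPKM with vehicle against 28.7, 33.3 and 30.8 with C13. Pfkm, the muscle type and the least abundant, measured 5.503, 6.78 and 6.46 FPKM with vehicle against 5.71, 7.20 and 5.96 with C13. In both the groups overlapped, with changes of -0.05 and 0.01. Pfkl held 53.0 to 57.0% of the summed FPKM of the 3 subunit genes with vehicle and 53.8 to 56.9% with C13.

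The remaining 9 enzymes carry sugar phosphates to pyruvate and lactate. They were among the more abundant RNAs of the cells, and in each the highest library was vehicle replicate 2. Gapdh, glyceraldehyde phosphate dehydrogenase, measured 1021, 1460.4 and 979.6 FPKM with vehicle against 1012, 1046 and 1043 with C13. The other 5 libraries lay close together. Pkm, pyruvate kinase, measured 657, 836 and 668 FPKM with vehicle against 672, 673 and 719.5 with C13. Aldoa, aldolase A, measured 621, 838 and 628 FPKM with vehicle against 631, 665 and 669 with C13. Again a single vehicle library set the width of the vehicle group.

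Ldha, which encodes the lactate dehydrogenase subunit that favours lactate formation, measured 586, 728 and 588 FPKM with vehicle against 573, 634 and 587 with C13. Eno1, enolase, measured 447, 515 and 470.2 FPKM with vehicle against 459, 423 and 484 with C13. Pgk1, phosphoglycerate kinase, measured 413, 469 and 413 FPKM with vehicle against 405, 448 and 441 with C13. All 3 genes overlapped between the groups, and their changes were -0.08, -0.07 and -0.0006.

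Pgam1, phosphoglycerate mutase, measured 268, 292 and 266 FPKM with vehicle against 281, 268 and 285 with C13. Tpi1, triosephosphate isomerase, measured 154, 211 and 154 FPKM with vehicle against 156, 180.1 and 177 with C13. Gpi1, which encodes the isomerase after hexokinase, measured 96.7, 133 and 98.1 FPKM with vehicle against 102, 106 and 109 with C13. These 3 overlapped as well, with changes of 0.01, -0.003 and -0.03. Over all 9 enzymes the limma adjusted p was 0.839 or more with all 6 libraries, and without vehicle replicate 2 the changes ran from -0.01 in Eno1 to 0.15 in Tpi1 with adjusted p of 0.278 or more. The annotation holds named copies of Aldoa, Gapdh, Pgk1, Pgam1, Ldha and Bnip3l and a gene Eno1b beside Eno1. Reads can be split between these copies, so the single values of these genes are less certain for it. Copies that do not carry the gene's name were not sought, for these or the other members.

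Of the 15 glycolytic enzymes 2 lay above 0 and 13 below with all 6 libraries (49.9% of all genes lay above), with a median change of -0.07 against -0.0003 over all genes tested, but without vehicle replicate 2 10 lay above 0 and 5 below (48.7% of all genes lay above) and the median was 0.05, and it was also above 0 with quantile normalization, with array weights and with the length and GC trend removed. Rescaling to TPM, which moved the median of all genes by 0.13, put it at -0.058 relative to that shift. The hexokinase genes and Pfkp were 4 of those 5, and Eno1 was the other. The 15 genes summed to 4467, 5703 and 4479.8 FPKM with vehicle against 4477, 4627 and 4694 with C13. The sum was highest in vehicle replicate 2 and the groups overlapped. As a share of all FPKM in the library, these genes held 0.845, 0.899 and 0.838% with vehicle against 0.854, 0.906 and 0.930% with C13. By that share C13 replicates 2 and 3 were the highest, and the groups overlapped as well.

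**Figure D2:**
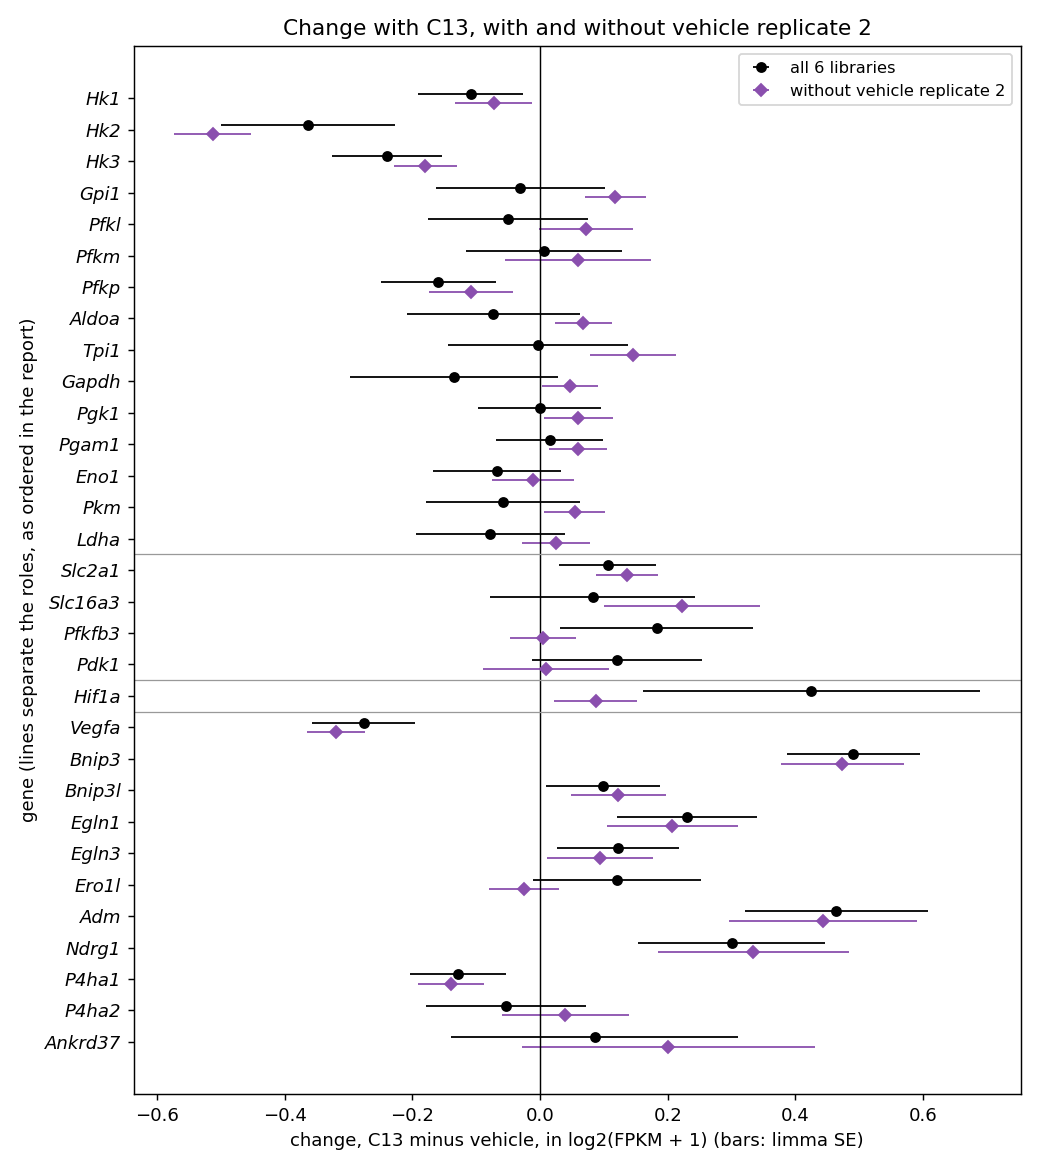
Change in log2(FPKM + 1), C13 minus vehicle, with limma SE for the 31 tested genes, from all 6 libraries (circles) and without vehicle replicate 2 (diamonds). Leaving the library out moves the enzymes from Gpi1 to Ldha to the right and Hif1a from 0.43 to 0.09, while Bnip3, Adm and Vegfa stay near 0.49 and 0.47, 0.46 and 0.44, and -0.28 and -0.32.

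Flux through glycolysis is set in part by Pfkfb3, which makes the activator of phosphofructokinase, and by Pdk1, a kinase that keeps pyruvate out of mitochondria, while Slc16a3 encodes the lactate exporter MCT4. Pfkfb3 measured 35.0, 23.7 and 34.4 FPKM with vehicle against 35.2, 35.5 and 33.8 with C13. Only vehicle replicate 2 differed, and the change of 0.18 (SE 0.151, limma adjusted p = 0.821) was 0.005 without it. Slc16a3 measured 22.1, 30.2 and 22.5 FPKM with vehicle against 21.7, 29.8 and 27.8 with C13, with high and low libraries in both groups. Pdk1 measured 4.57, 3.83 and 5.65 FPKM with vehicle against 5.10, 5.00 and 5.28 with C13, and its groups overlapped. The changes of Slc16a3 and Pdk1 were 0.08 and 0.12 (limma adjusted p of 0.894 and 0.831), and 0.22 and 0.01 without vehicle replicate 2.

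Hif1a (chromosome 12, 73901375 to 73947530, plus strand) had 63.2, 30.3 and 61.2 FPKM in the vehicle libraries and 61.5, 66.7 and 70.6 FPKM in the C13 libraries. Vehicle replicate 2 held less than any other library and vehicle replicate 1 more than C13 replicate 1, so the groups overlapped. The change was 0.43 (SE 0.264, limma adjusted p = 0.805) and 0.09 (SE 0.0654, adjusted p = 0.560) without vehicle replicate 2, so that this library accounts for most of the difference between the group means. No difference in Hif1a RNA beyond the spread of the libraries was detected in either fit.

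**Figure D3:**
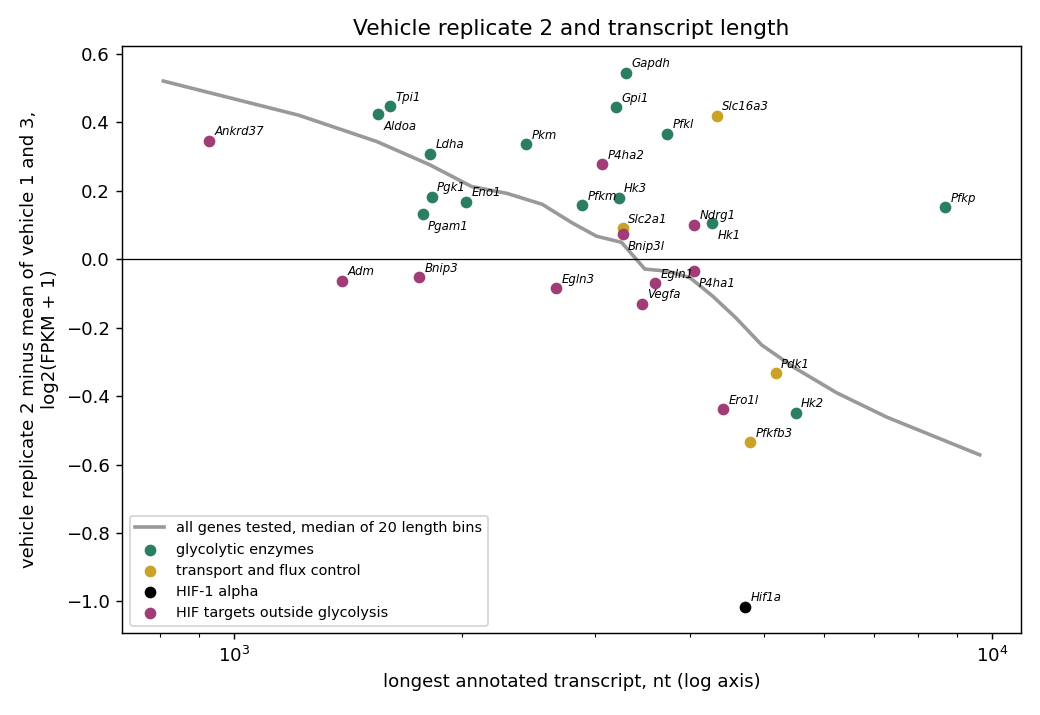
Vehicle replicate 2 minus the mean of vehicle replicates 1 and 3 in log2(FPKM + 1), against the length of the longest annotated transcript on a log axis, for the 31 tested genes coloured by role, with the median of all genes tested in 20 length bins as a grey line. The line falls from 0.52 at 808 nt to -0.57 at 9639 nt, most glycolytic enzymes lie above 0 and Hif1a lies at -1.01.

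In vehicle replicate 2 short and GC-rich transcripts were high and long ones low, and the members followed this. Across all 11321 tested genes with an annotated transcript its deviation from the other vehicle libraries had a Spearman correlation of -0.65 with transcript length and 0.46 with GC content, and across the 31 members -0.48 and 0.59, given as descriptions of genes that share 1 library. In Bnip3 and Adm the deviation was -0.052 and -0.062, and in Vegfa it was -0.13.

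Vegfa (chromosome 17, 46016993 to 46032369, minus strand) encodes the growth factor that draws in blood vessels and is the best known HIF target. It measured 155, 141 and 155 FPKM with vehicle against 124, 128 and 119.6 with C13. All C13 libraries lay below all vehicle libraries. The change was -0.28 (SE 0.0804, limma adjusted p = 0.485), and without vehicle replicate 2 it was -0.32 (SE 0.0462, adjusted p = 0.0332), so Vegfa fell in that comparison. The call stayed when that comparison was rescaled to TPM, quantile normalized or stripped of the length and GC trend (limma adjusted p of 0.0370, 0.0423 and 0.0314). As for Hk2, these settings reuse the same libraries and were chosen after seeing the data. The summed fibroblast and mural markers were lower in all 3 C13 libraries. Of the 8 genes Acta2 and Tagln were lower with C13 without overlap (9.78% of all genes), and 3 (Dcn, Lum and Col3a1) had changes above 0. The part of these cells in the Vegfa result was not tested.

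Bnip3 and Bnip3l encode related receptors on the outer membrane of mitochondria that hand the organelle to autophagy. Bnip3 (chromosome 7, 138890836 to 138909519, minus strand) measured 14.9, 14.5 and 15.1 FPKM with vehicle against 18.5, 22.7 and 22.9 with C13. The vehicle libraries were nearly equal and all C13 libraries lay above them. It had the smallest p of the members, with a change of 0.49 (SE 0.104, limma adjusted p = 0.316), and 0.47 (SE 0.097, adjusted p = 0.0718) without vehicle replicate 2. Bnip3l measured 18.7, 18.9 and 17.1 FPKM with vehicle against 18.8, 21.1 and 19.0 with C13, and a vehicle library (replicate 2) exceeded C13 replicate 1. Its change was 0.10 (SE 0.0891, limma adjusted p = 0.821). The ratio of Bnip3 to Bnip3l within a library was 0.797, 0.766 and 0.885 with vehicle and 0.986, 1.08 and 1.21 with C13, without overlap.

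Adm (chromosome 7, 110627661 to 110629820, plus strand) encodes adrenomedullin, a peptide that widens vessels. It measured 36.8, 33.7 and 33.6 FPKM with vehicle against 39.3, 48.5 and 58.7 with C13. The C13 libraries were all higher but differed widely among themselves. The change was 0.46 (SE 0.144, limma adjusted p = 0.524), and leaving out 1 library at a time moved it between 0.33 and 0.61. Ndrg1 (chromosome 15, 66929318 to 66969640, minus strand), a gene induced by hypoxia and metal stress, measured 11.2, 11.9 and 10.9 FPKM with vehicle against 12.6, 18.0 and 12.4 with C13. C13 replicate 2 stood above the rest, and the change of 0.30 (SE 0.146, limma adjusted p = 0.740) was 0.14 without it. That library also had the highest sum of astrocyte markers, 112 FPKM, and their part in the Ndrg1 value was not tested.

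**Figure D4:**
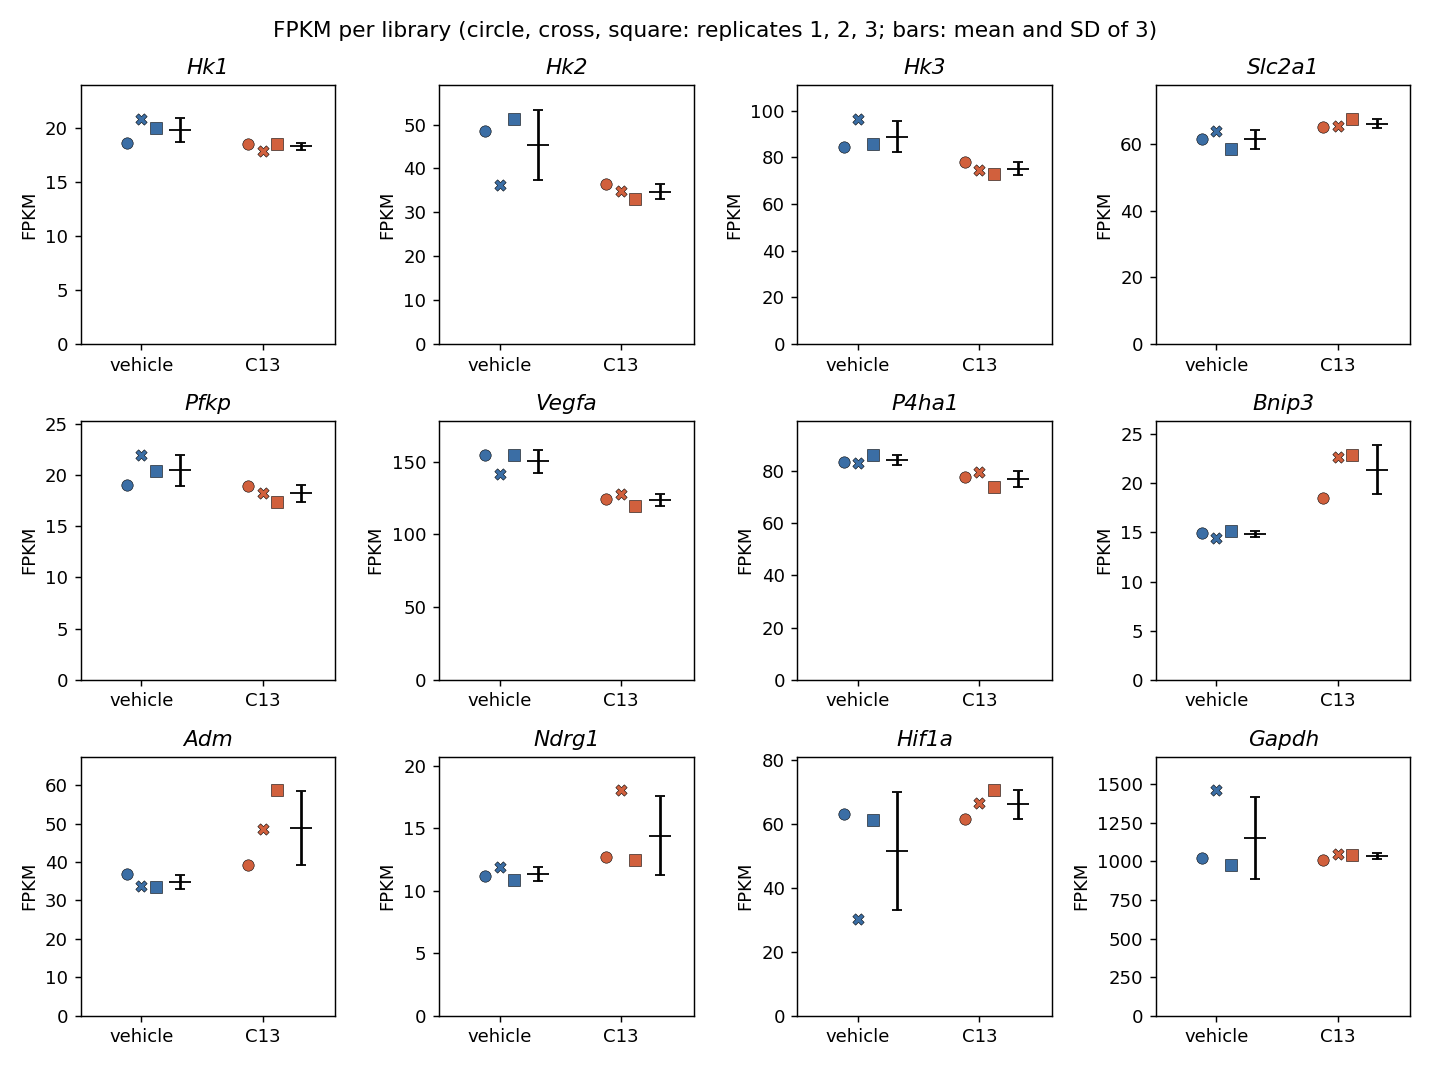
FPKM of 12 members in each library, on axes that start at 0, with the mean and SD of the 3 libraries of each group beside the points. Bnip3, Adm and Ndrg1 are higher and Hk3, Vegfa and P4ha1 lower in all C13 libraries. In Hk2, Hif1a and Gapdh vehicle replicate 2 (cross) lies apart from the other vehicle libraries. In Hk2 it lies among the C13 libraries and draws the vehicle mean toward theirs.

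P4ha1 and P4ha2 encode catalytic subunits of the prolyl hydroxylase that lets collagen fold. P4ha1 (chromosome 10, 59323296 to 59373304, plus strand) measured 83.5, 82.9 and 86.3 FPKM with vehicle against 77.7, 79.5 and 73.7 with C13, without overlap. The change was -0.13 (SE 0.0748, limma adjusted p = 0.800), and after rescaling to TPM it was 0.0052, or -0.12 relative to the median of all genes. P4ha2 measured 46.0, 55.9 and 45.9 FPKM with vehicle against 42.7, 54.6 and 45.2 with C13, with 1 high library in each group. Collagen genes were abundant in every library, Col1a1 at 1773 to 2137 FPKM, its groups overlapping, and the part of fibroblasts and mural cells in the P4ha1 value was not tested.

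The EGLN prolyl hydroxylases mark HIF-1 alpha for destruction and are themselves HIF targets, a feedback loop. Egln1, the main oxygen sensor, measured 8.92, 8.11 and 8.21 FPKM with vehicle against 8.75, 10.9 and 10.6 with C13. C13 replicates 2 and 3 lay above all vehicle libraries and C13 replicate 1 did not, and the change was 0.23 (SE 0.109, limma adjusted p = 0.731). Egln3 measured 7.15, 6.88 and 7.57 FPKM with vehicle against 7.32, 8.45 and 8.02 with C13, with a change of 0.12 (adjusted p = 0.821). In both genes C13 replicates 2 and 3 were the highest libraries, as in Bnip3 and Adm, and they were also the highest in the sum of astrocyte markers, whose part in these values was not tested.

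Ero1l, named Ero1a in the annotation, encodes the oxidase that forms disulfide bonds in the endoplasmic reticulum. It measured 37.9, 27.0 and 35.9 FPKM with vehicle against 35.1, 36.4 and 37.3 with C13. Vehicle replicate 2 alone was low, and the change of 0.12 turned to -0.03 without it. Ankrd37, an ankyrin repeat gene used as a hypoxia marker, measured 1.27, 2.17 and 1.75 FPKM with vehicle against 1.11, 2.05 and 2.67 with C13, resting on an estimated 10 to 28 fragments per library; its change was 0.09 (SE 0.225, limma adjusted p = 0.922). Car9, a carbonic anhydrase that is nearly silent without hypoxia in most tissues, measured 0.983, 0.999 and 0.674 FPKM with vehicle against 0.366, 0.446 and 0.784 with C13. At an estimated 8 to 22 fragments per library its mean lay under the limit for testing and its groups overlapped.

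Set side by side with the glycolytic enzymes, the HIF targets outside glycolysis had these values. Of the 11 targets tested 8 lay above 0 and 3 below, with a median change of 0.12 with all 6 libraries and 0.12 without vehicle replicate 2, against -0.07 and 0.05 for the enzymes and -0.0003 and -0.005 for all genes tested. The changes of the targets ran from -0.28 in Vegfa to 0.49 in Bnip3, and those of the enzymes from -0.36 in Hk2 to 0.01 in Pgam1. Without vehicle replicate 2 the targets ran from -0.32 to 0.47 and the enzymes from -0.51 to 0.15. The median of the targets relative to the vehicle mean was 0.01, -0.03 and 0.02 in the vehicle libraries and 0.04, 0.20 and 0.14 in the C13 libraries. The astrocyte markers had the same order of C13 libraries, with medians of -0.016, -0.029 and 0.15 with vehicle and 0.25, 0.58 and 0.37 with C13. Of the 7 tested, 5 were higher with C13 without overlap (6.83% of all genes), and their part in the values of the targets was not tested. For the enzymes the median was -0.11, 0.12 and -0.06 with vehicle and -0.11, -0.05 and -0.05 with C13. The difference between the groups of genes was not tested, since the genes were chosen by name with results of these data known. Without vehicle replicate 2 the groups did not overlap in 9 members higher with C13 (15.3% of all genes) and 6 lower (20.5%).

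Of 30 other genes of glycolysis 22 were tested and of 38 other genes of the HIF pathway 35, both listed by name, and limma called 0 of them with all 6 libraries. In the first list 13 genes lay above 0 with a median change of 0.03, and 1 had an unadjusted p under 0.05 on the higher side and 0 on the lower. In the second 20 lay above 0 with a median of 0.05, and 2 had an unadjusted p under 0.05 on the higher side (2.57% of all genes) and 6 on the lower (4.77%). Of the 6 with the smallest p, all in the HIF list, 5 are described here. Angptl4, a secreted inhibitor of lipoprotein lipase, measured 30.8, 42.2 and 29.5 FPKM with vehicle against 22.0, 23.0 and 24.0 with C13. It was the only gene of these lists called without vehicle replicate 2, where it fell by 0.38 (limma adjusted p = 0.0407).

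The circadian and stress repressor gene Bhlhe40 measured 16.8, 15.6 and 17.5 FPKM with vehicle against 10.9, 14.3 and 9.79 with C13. Its relative Bhlhe41 went the other way, with 0.943, 0.898 and 0.952 FPKM with vehicle against 1.33, 1.63 and 1.37 with C13. The endothelin gene Edn1 measured 7.10, 6.20 and 6.66 FPKM with vehicle against 5.91, 4.41 and 4.14 with C13. In contrast Gbe1, the glycogen branching enzyme, measured 6.73, 4.43 and 6.31 FPKM with vehicle against 8.26, 8.34 and 8.87 with C13. The groups did not overlap in any of these 5 genes, and their limma adjusted p with all 6 libraries was 0.415 to 0.574. They were chosen by small p, and over all genes 6.83% were higher and 9.78% lower without overlap. Gbe1 and Bhlhe41 were on the higher side and Angptl4, Bhlhe40 and Edn1 on the lower side.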

How the data were processed

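Per the labels' protocols, RNA was captured with poly-dT beads and made into libraries with a stranded mRNA kit. Per the submitters' processing notes, TopHat2 2.1.0 and Cufflinks were used with mm10; which annotation and Cufflinks version served, and whether strand was used, is not given in the sources used here. Deposited by the authors was 1 FPKM value per gene and library, with 0.01 as the lowest value. FPKM divides by transcript length and library total, so a library with more reads from short transcripts shifts genes by length.

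Columns were matched to samples by the description label. On log2(FPKM + 1), keeping genes whose mean reached 1 FPKM, C13 was set against vehicle by limma 3.58.1 under R 4.3.3 (intensity trend, two-sided), with Benjamini-Hochberg adjustment over 11412 genes at 0.05. This scale understates the change of low genes. Whole reads were not recovered, so no count test was run. Depth came from the step worth 1 fragment in genes with 1 annotated transcript of at least 1500 nt. Positions and lengths are from GENCODE M21 (GRCm38; 99.2% of tested genes matched), promoters from RefSeq (GRCm38.p6). The limma fit was tested on simulated data. The members and lists were chosen with earlier results of these data known; all members were named, with values in every library, and of the other pathway genes the 6 with the smallest p, of which 1 is not reported here. Array weights were computed gene by gene. The alternatives tried are given at the end.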

Additional observations from a re-analysis of the deposited data

How the results depend on the processing

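Counts past the threshold depended on 1 library and on weighting. Over all genes 0 were called with all 6 libraries, with either other pseudocount (0.1 or 5), a minimum of 5 FPKM or the replicate block, against 12 with no filter, 7 with quantile normalization, 2 after rescaling to TPM, 27 with the length and GC trend removed and 436 with array weights (42 with weights by REML, added after seeing the data, whose estimation stopped before it converged). Leaving out 1 library gave 0 to 169, the highest without vehicle replicate 2, and 1 without C13 replicate 1. Without vehicle replicate 2 it was 159 after rescaling to TPM, 139 with quantile normalization and 161 with the trend removed, all chosen after seeing the data, with 2 members called in each. Members called were 0 in every planned setting but 2: 3 with array weights (Hk2, Vegfa and Bnip3, adjusted p of 0.00571, 0.0115 and 0.0187), and 0 to 2 over the leave-one-out comparisons. The replicate numbers were not shown to pair the libraries (correlations of 0.089, 0.13 and 0.098 for numbers 1, 2 and 3, although each library correlated best with its own replicate number). The deposited columns carry other numbers, by which vehicle replicate 1 shares its number with C13 replicate 2 (correlation of -0.10). Vehicle replicate 3 and C13 replicate 3 share a number in both schemes. A block by the column numbers was not fitted. With the replicate number as a block 0 genes were called, and 2 with the length and GC trend also removed, none of them a member.

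Rescaling to TPM moved the median of all genes by 0.13. The median of the glycolytic enzymes was then 0.068 (-0.058 relative to that shift), 0.072 with quantile normalization, 0.043 with array weights, 0.0077 with the length and GC trend removed, and -0.13 to 0.054 when 1 library was left out. The median of the HIF targets outside glycolysis was 0.26 after rescaling to TPM (0.13 relative to the shift), and 0.08 to 0.17 when 1 library was left out.

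Apart from that shift, the cause of the sign changes that follow, all in genes that were not called, was not tested. With quantile normalization Gpi1 (0.092), Pfkl (0.013), Aldoa (0.072), Tpi1 (0.13), Gapdh (0.11), Pgk1 (0.16), Eno1 (0.076), Pkm (0.11), Ldha (0.058) and P4ha2 (0.029) turned above 0 and Pfkm (-0.036) and Ankrd37 (-0.0064) below. After rescaling to TPM Hk1 (0.021), Gpi1 (0.10), Pfkl (0.082), Aldoa (0.062), Tpi1 (0.13), Gapdh (0.0013), Pgk1 (0.13), Eno1 (0.068), Pkm (0.078), Ldha (0.058), P4ha1 (0.0052) and P4ha2 (0.081) turned above 0, but relative to the shift of all genes 10 of these 12 stayed below 0, the exceptions being Tpi1 (0.0062) and Pgk1 (0.0092). With array weights so did Gpi1 (0.11), Pfkl (0.043), Aldoa (0.057), Tpi1 (0.14), Gapdh (0.046), Pgk1 (0.057), Pkm (0.048), Ldha (0.012) and P4ha2 (0.022), and Pdk1 (-0.024) turned below. With the length and GC trend removed, with or without the replicate block, Gpi1 (0.0027), Aldoa (0.048), Tpi1 (0.11), Pgk1 (0.069), Eno1 (0.036), Pkm (0.028) and Ldha (0.0077) turned above 0. Leaving out 1 library at a time changed the sign of Pfkm (-0.081 to 0.063), Pgam1 (-0.010 to 0.059), Ankrd37 (-0.092 to 0.31), Gpi1 (-0.11 to 0.12), Pfkl (-0.13 to 0.072), Aldoa (-0.15 to 0.068), Tpi1 (-0.079 to 0.15), Gapdh (-0.24 to 0.048), Pgk1 (-0.031 to 0.060), Pkm (-0.12 to 0.054), Ldha (-0.13 to 0.025), Ero1l (-0.025 to 0.21), P4ha2 (-0.16 to 0.040) and Slc16a3 (-0.0059 to 0.22). Hk2, Hk3, Pfkp and Vegfa stayed below 0 and Slc2a1, Pfkfb3, Hif1a, Bnip3, Bnip3l, Egln1, Egln3, Adm and Ndrg1 above 0 in all 17 planned settings.

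No read totals were in the table, so estimated fragments limit precision: 8 to 28 per library in Car9 and Ankrd37, 141 or more in every other member. With 3 libraries a group, a permutation of labels could not go below 0.10 for a single value.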

Other observations

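Ratios within a library do not change with its scaling, and those chosen here after the values were seen set the HIF targets against each other. The ratio of Bnip3 to Vegfa was 0.0967, 0.102 and 0.0977 in the vehicle libraries and 0.149, 0.178 and 0.192 in the C13 libraries. Vehicle replicate 2 lay with the other vehicle libraries in this ratio. The ratio of Adm to Vegfa was 0.2381, 0.2380 and 0.217 with vehicle and 0.316, 0.380 and 0.490 with C13. In both ratios all C13 libraries lay above all vehicle libraries, with C13 replicate 1 the lowest of its group. That separation adds nothing to the single values, since Bnip3 and Adm were higher and Vegfa lower in every C13 library. The ratio of Egln1 to Egln3 overlapped, at 1.08 to 1.25 with vehicle and 1.19 to 1.31 with C13, and so did that of P4ha1 to P4ha2, at 1.48 to 1.88 and 1.46 to 1.82.

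Neighbouring annotation bears on several members, because the use of strand in the counting is not given. On the opposite strand, antisense genes overlap Adm (Gm28863, 2160 bases), Bnip3 (Gm45507, 3712 bases), Hk2 (Gm17034, 3007 bases) and Hif1a (Gm15283, 46156 bases). A processed pseudogene, Gm18258, also overlaps Bnip3, and Gm49321, a protein-coding gene on the same strand, overlaps Hif1a by 9878 bases. None of these overlapping genes has a value in the deposited data. Pfkm overlaps Senp1 on the opposite strand, which had 4.61 to 6.85 FPKM, and Pfkp overlaps the end of Pitrm1, which had 22.1 to 24.8 FPKM, near the level of Pfkp. How reads of these overlapping genes were assigned was not tested.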
